A study of Mus musculus with 6 samples.

Results

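Interferon-stimulated genes are the genes that cells switch on when interferon binds its receptor. Here they were followed in AE9a leukemia cells from central bone marrow (CBM) and endosteal bone marrow (EBM). The set held 38 genes, chosen by name from the well known antiviral and immune genes of the interferon response, among the 54532 genes of the count table. All 38 were found in the table, and 33 were counted highly enough to be tested, as were 13352 genes in all. AE9a is a splice form of the AML1-ETO fusion protein of t(8;21) leukemia.

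The mice were C57BL/6, and the leukemia had been made by putting AE9a on a retrovirus with GFP into c-Kit+ marrow cells, which were transplanted into lethally irradiated female C57BL/6 mice. All cells sequenced came from the third generation of transplanted mice, so they trace back to an established transplantable leukemia. Neither group carried another allele or received a drug, and the study bought female mice as young adults, while their age when these cells were collected is not given in the sources used here. CBM cells were flushed from femurs and tibias, and EBM cells were then released from the bones that remained with collagenase I at 37 °C, so region and digestion cannot be told apart. There were 3 libraries from each region. The labels do not say that these came from separate mice, so p-values measure the spread between these libraries, which may be technical in part. The labels describe cells kept in IMDM with FBS around the sort, a step that both regions share.

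Type I interferons act through the receptor chains Ifnar1 and Ifnar2 and the kinases Jak1 and Tyk2, which phosphorylate Stat2. Together with Irf9 it takes part in the factor ISGF3, which binds the interferon-stimulated response element (ISRE) in the promoters of target genes. Type II interferon (interferon gamma) acts through another element, GAS. Among the products are sensors of viral RNA, enzymes that degrade or block it, and feedback inhibitors. In bone marrow, interferon signalling is known to act on hematopoietic stem and progenitor cells as well as on mature immune cells.

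Some of the genes share a short motif in their promoters. The upstream stretches of 6 members are printed, which hold 2 spaced GAAA boxes, the core of an ISRE, before the annotated start. The stretches belong to the tested members with the smallest unadjusted p between the regions (edgeR) among those with such a pair outside annotated exons. They are from RefSeq, build GRCm38.p6, written 5′ to 3′ on the strand of the gene, with the matched letters in capitals (GAAA, any 2 bases, GAAA, or on the other strand TTTC, any 2 bases, TTTC).
Gbp3, chr3:142559959-142560025, plus strand: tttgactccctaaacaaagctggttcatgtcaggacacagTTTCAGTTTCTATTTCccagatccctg
Isg15, chr4:156200835-156200936, minus strand: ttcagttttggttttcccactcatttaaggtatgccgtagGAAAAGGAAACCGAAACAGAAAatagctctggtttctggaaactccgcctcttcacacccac
Bst2, chr8:71537547-71537642, minus strand: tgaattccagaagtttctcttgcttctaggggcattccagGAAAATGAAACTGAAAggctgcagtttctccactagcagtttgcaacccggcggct
Ifit1, chr19:34640745-34640853, plus strand: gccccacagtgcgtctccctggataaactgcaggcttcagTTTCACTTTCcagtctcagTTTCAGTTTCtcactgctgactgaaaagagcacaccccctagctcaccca
Oas1a, chr5:120907526-120907585, minus strand: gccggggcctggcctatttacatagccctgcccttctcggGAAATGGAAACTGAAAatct
Oas3, chr5:120777685-120777774, minus strand: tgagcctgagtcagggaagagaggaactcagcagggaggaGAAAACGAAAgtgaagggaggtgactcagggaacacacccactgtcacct

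Isg15 held 3 overlapping matches, the first beginning 78 bases before the start. Bst2, Oas1a and Gbp3 each held 2 overlapping matches, Ifit1 held 2 separate ones and Oas3 held 1. In windows of 300 bases, from 250 before to 50 after the start, both strands searched, 28 members had an entry and 16 of them held the spaced GAAA pair, or 57.1%. Of all 27025 genes with a window, 3.99% held it. The GAS core TTCNNNGAA, whose letters are their own reverse complement, was in the windows of 8 of the 28 members and of 9.55% of all genes. These matches are letters in a window and not measured binding.

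Counts on genes lay between 16436526 and 19462964 per library, so a floor of 3 counts stood at 0.154 to 0.183 CPM (counts scaled to library size with TMM factors of 0.948 to 1.04). The floor of 3 counts covers counting error only, and not the spread between libraries. The leukemic progenitor markers Kit, Cd34, Myb, Mpo and Runx1t1 summed to 560 to 587 CPM in CBM and 573 to 597 CPM in EBM. Sp7 and Alpl of osteoblasts, Emcn of endothelium and Ms4a1 of B cells were at 0 in every library. Other markers of these cell types were counted. The B cell list summed to at most 14.5 CPM in any library, the endothelial list to 3.16 CPM and the osteoblast list to 0.779 CPM. In chi-square statistics per degree of freedom over genes, EBM replicate 3 lay at 65.1 and 44.4 from the other EBM libraries, which lay 13.1 from each other. The CBM libraries lay 32.5 to 76.9 from each other, and CBM replicates 1 and 2 were the farthest pair. Differences that rest on CBM replicate 2 or EBM replicate 3 are also given without them.

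Most of the interferon-stimulated genes were found in the RNA of both regions. There was no library of interferon-treated cells to compare with, so whether this is a basal level was not tested. Scaled to gene length as TPM and averaged over the 6 libraries, 30 of the 38 genes lay between 7.58 and 236 TPM. The highest were Bst2 (206 to 293 TPM across the libraries), which tethers budding virus to the cell surface, Ifi27 (181 to 256 TPM) and Isg15 (71.1 to 360 TPM), the ubiquitin-like protein that is attached to other proteins. Their ranges overlapped. Next came Oas1a (mean 111 TPM), which makes the activator of RNase L, and Isg20 (mean 104 TPM), an exonuclease for RNA. Among the lowest of those tested were Rtp4 and Ifit1 with means of 3.54 and 3.44 TPM, and Mx1 with 0.453 TPM. Mx1, an antiviral GTPase, is known to be defective in most laboratory strains, C57BL/6 among them.

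**Figure D1:**
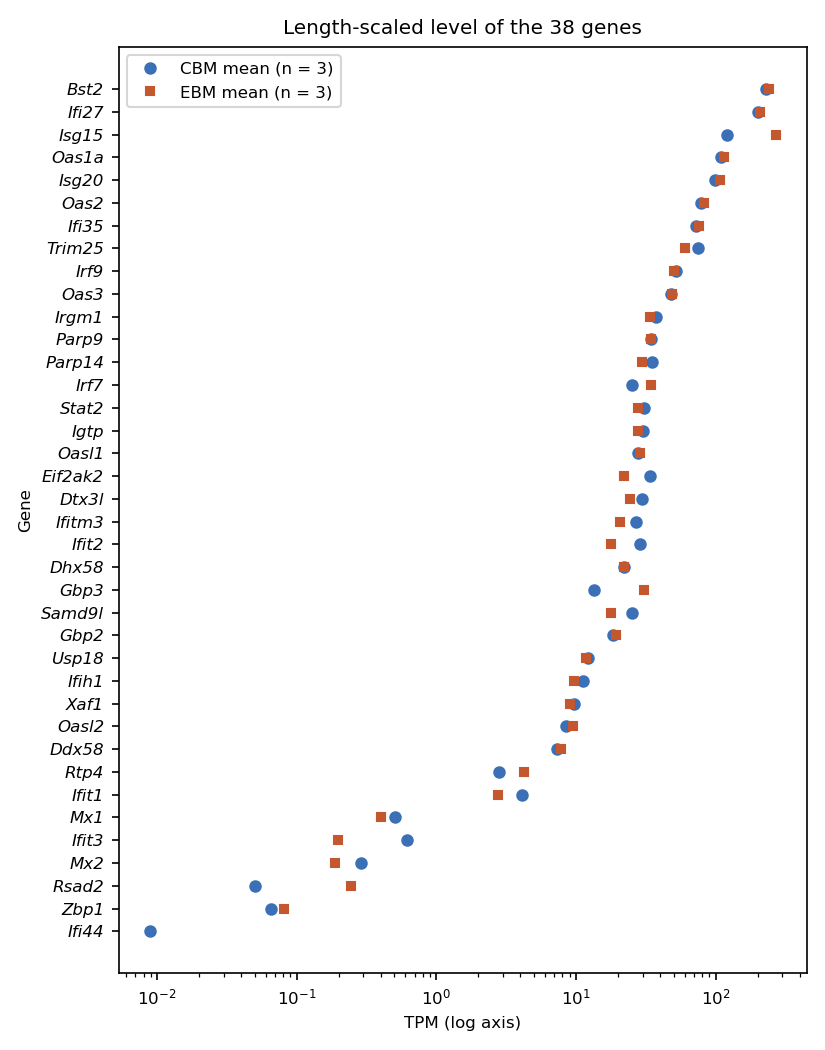
Mean TPM (log axis) of the 38 interferon-stimulated genes in CBM (blue circles, n = 3) and EBM (orange squares, n = 3), in order of the mean over 6 libraries. Bst2, Ifi27 and Isg15 lie at the top and Ifi44, at 0 in EBM and so without an orange square, at the bottom.

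Another 5 members were left out of the test by their low counts. Ifit3, a partner of Ifit1 in binding foreign RNA, had 7, 6 and 6 counts in the CBM libraries and 2 in each EBM library. Its neighbour Ifit3b, a near-identical copy that could share its reads, had 1 count in all. Rsad2 (viperin) had 0, 4 and 0 counts in CBM and 11, 8 and 0 in EBM. Mx2 had between 3 and 9 counts and Zbp1, a sensor of Z-form nucleic acid, at most 3. Ifi44 had 1 count in CBM replicate 2 and 0 elsewhere, which does not reach the floor of 3 counts. So the counts of the IFIT genes were split, with Ifit2 well counted, Ifit1 at 27 to 140 counts per library and Ifit3 barely counted. How reads that fit both Ifit3 and Ifit3b were counted is not given, so the level of Ifit3 is uncertain.

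Whether the regions differed was asked gene by gene. In edgeR's quasi-likelihood test, 0 of the 33 members passed an adjusted p of 0.05, and the smallest was 0.266. The test called 0% of the 13352 genes in either direction at that threshold. At an unadjusted p under 0.05, 2 members (6.06%) were higher in EBM, beside 4.01% of all genes tested, and 2 were lower, beside 3.9%. These shares are near those of all genes. The median log2 fold change of EBM over CBM was 0.11 over the members and 0.002 over all genes, with 20 members higher and 13 lower. The members' median was -0.03 without CBM replicate 1, -0.03 without CBM replicate 3 and -0.31 without EBM replicate 3, but 0.32 without CBM replicate 2, so its sign rested on single libraries. The count of members lower at an unadjusted p under 0.05 was 0 without CBM replicate 2 or without EBM replicate 2, and 4 without EBM replicate 3. DESeq2 called 1 member, Gbp3, at an adjusted p of 0.05, higher in EBM, where it called 1.04% of genes higher and 0.349% lower. Libraries of the regions did not overlap for 3 of the 33 members tested. EBM lay above CBM for 1 of these (background 7.47% of genes) and below it for the other two (background 7.65%).

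**Figure D2:**
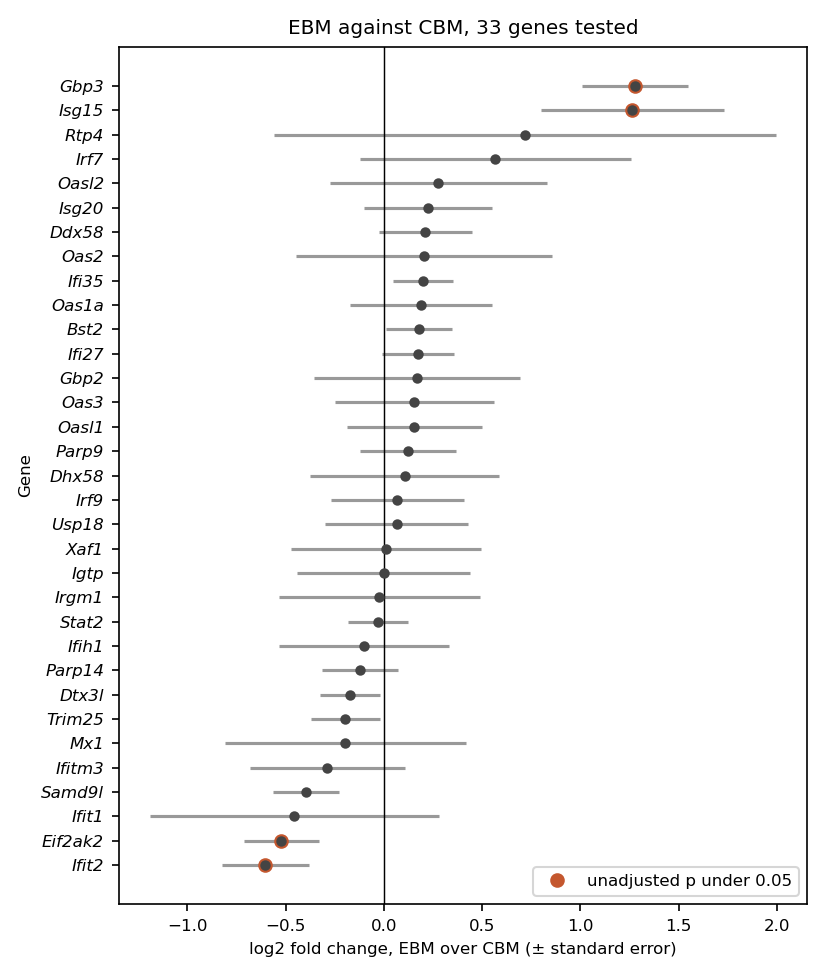
Log2 fold change of EBM over CBM with its standard error for the 33 genes tested, from edgeR's quasi-likelihood fit on 3 libraries per region. Larger points in orange have an unadjusted p under 0.05, which Gbp3 and Isg15 reach above 0 and Ifit2 and Eif2ak2 below 0.

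Gbp3, a guanylate-binding GTPase of the interferon gamma response, was the member with the smallest p. Its CBM libraries, in the order of replicates 1 to 3 used throughout, held 19.1, 12.1 and 10.5 CPM. Its EBM libraries held 36.5, 38.9 and 25.5 CPM. Every EBM library lay above every CBM library, with means of 13.9 ± 4.59 in CBM and 33.6 ± 7.14 in EBM (SD, n = 3 each). EBM exceeded CBM by 1.28 ± 0.27 (SE) on the log2 scale (edgeR adjusted p = 0.266). DESeq2 gave an adjusted p of 0.00117. With single libraries left out the log2 fold change stayed between 1.11 and 1.58, and without CBM replicate 2 and EBM replicate 3 together it was 1.35.

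Isg15 was at 19.9, 50.6 and 16.6 CPM in CBM and at 65.3, 47.7 and 96.5 CPM in EBM. The regions overlapped only because CBM replicate 2 lay just above EBM replicate 2. The means were 29.0 ± 18.8 and 69.8 ± 24.7 CPM, which is 1.26 ± 0.47 (SE) higher in EBM on the log2 scale (edgeR adjusted p = 0.571). Without CBM replicate 2 it was 1.94, and without both CBM replicate 2 and EBM replicate 3 it was 1.63 with an adjusted p of 0.0740 (edgeR).

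Ifit2 and Eif2ak2 were lower in EBM, with no overlap. Ifit2, which binds RNA and limits its translation, was at 34.0, 45.2 and 28.2 CPM in CBM and 26.9, 25.6 and 18.2 CPM in EBM, a difference of -0.60 ± 0.22 (SE) on the log2 scale (edgeR adjusted p = 0.571). Eif2ak2, the kinase PKR that halts translation when it meets double-stranded RNA, was at 44.3, 71.1 and 50.1 CPM in CBM and 35.8, 36.4 and 43.2 CPM in EBM, a difference of -0.52 ± 0.19 (SE) on the log2 scale (edgeR adjusted p = 0.572). Without CBM replicate 2 these were -0.40 and -0.29. Without CBM replicate 2 and EBM replicate 3 together they were -0.25 for Ifit2 and -0.39 for Eif2ak2. Samd9l, a restriction factor and brake on growth of myeloid cells, was at 39.2, 48.9 and 42.3 CPM in CBM and 30.7, 27.8 and 40.5 CPM in EBM, a difference of -0.40 ± 0.17 (SE) on the log2 scale (edgeR adjusted p = 0.639), and here EBM replicate 3 reached into the CBM range.

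The pattern that most members shared ran across the regions. For 23 of the 33 members tested, or 69.7%, the 2 highest libraries were CBM replicate 2 and EBM replicate 3. The same held for 15.6% of all 13352 genes. This pair of libraries was singled out after the members' values were seen. Over all genes the pair CBM replicate 1 and EBM replicate 1 was nearly as frequent, at 14.7%, but it was the top pair of 2 members only. CBM replicate 2 was the highest CBM library for 28 members (84.8%, against 39.8% of all genes) and EBM replicate 3 the highest EBM library for 28 (84.8%, against 40.7%). These are counts over genes of the same 6 libraries, and the members are not independent of each other. The libraries carry different replicate numbers, and they held 18856418 and 16436526 counts, the first among the larger totals and the second the smallest.

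**Figure D3:**
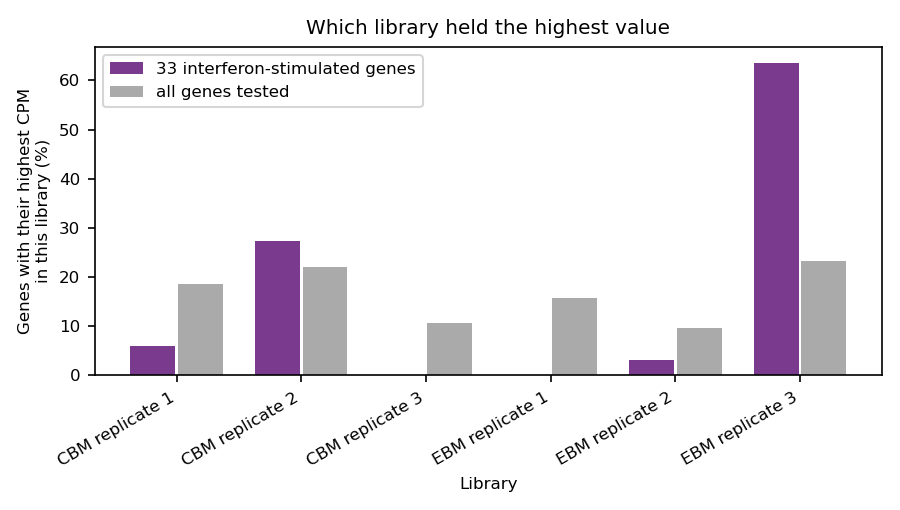
Percent of genes whose highest CPM of the 6 libraries was in each library, for the 33 interferon-stimulated genes tested (purple) and all 13352 genes tested (grey). EBM replicate 3 held the highest value for 63.6% of the members and 23.2% of all genes, and CBM replicate 3 and EBM replicate 1 for none of the members.

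Averaged over the 33 members after centring each gene on its mean, log2(CPM + 0.5) was -0.24, 0.40 and -0.28 in the CBM libraries and -0.19, -0.23 and 0.54 in the EBM libraries. Over all genes tested the same average lay between -0.06 and 0.03. The range from the lowest to the highest library had a median of 1.22 on the log2 scale over the members and 0.59 over all genes. The spread within a region (SD of log2 CPM) had a median of 0.51 over the members, 0.21 over all genes and 0.22 over the 11242 genes that lie in the same range of mean CPM. The difference between regions had a median size of 0.19 over the members and 0.15 over all genes.

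**Figure D4:**
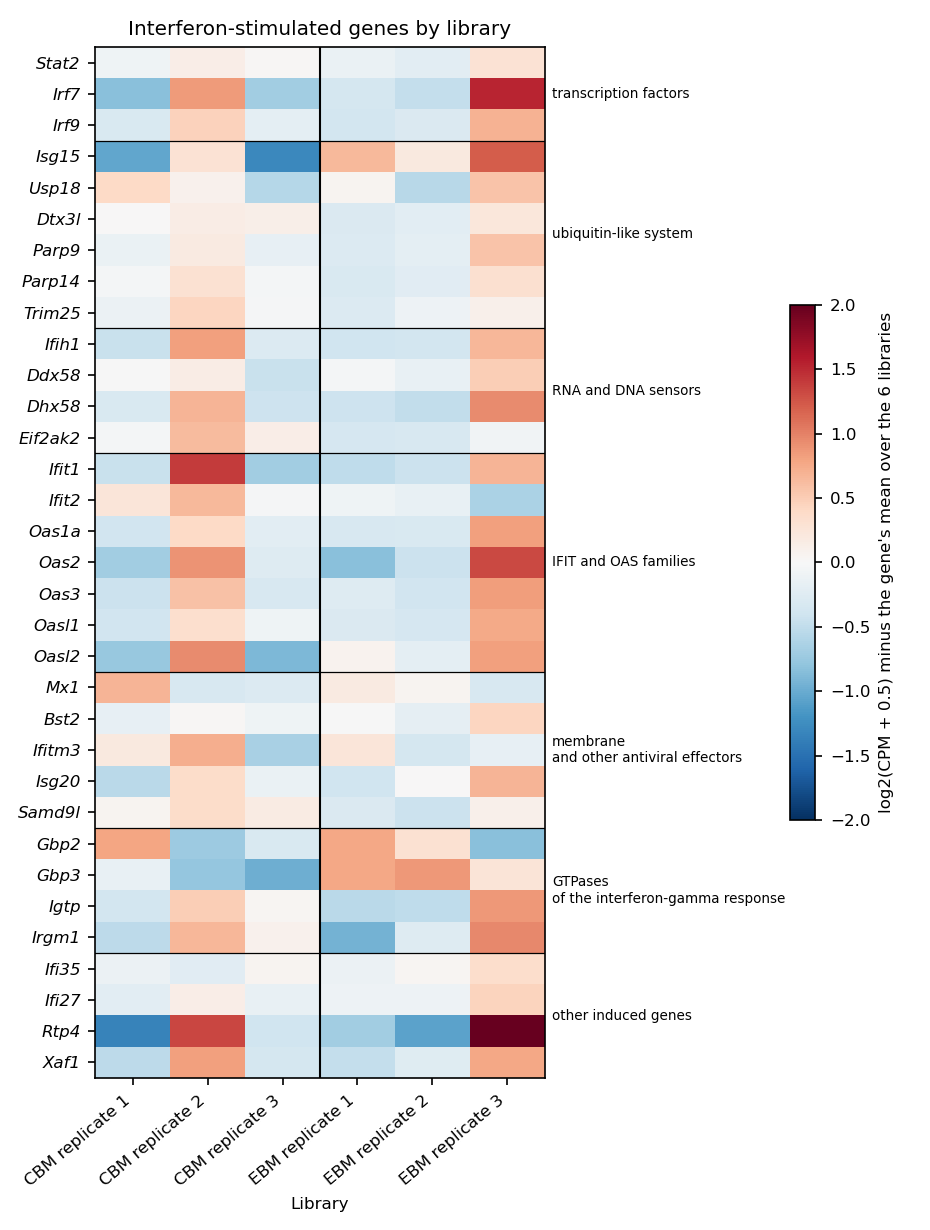
Log2(CPM + 0.5) of the 33 interferon-stimulated genes tested minus each gene's mean, by library, with CBM on the left and EBM on the right of the black line and genes grouped by role. The colour scale ends at 2 and the value of Rtp4 in EBM replicate 3 lies beyond it, and the columns of CBM replicate 2 and EBM replicate 3 are red in most rows.

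The transcription factors showed it at unequal size. Irf7, which amplifies the interferon response by inducing more interferon, was at 17.0, 55.7 and 18.8 CPM in CBM and at 24.0, 21.9 and 89.9 CPM in EBM. The highest library was 5.28 times the lowest, while the region means of 30.5 ± 21.8 and 45.3 ± 38.7 CPM did not differ beyond the spread (edgeR log2 fold change 0.57, adjusted p = 0.933). Without EBM replicate 3 the log2 fold change of Irf7 was -0.42 and without CBM replicate 2 it was 1.34. Its sign turned in 1 of the 13 alternative settings, namely without EBM replicate 3. Irf9 was at 70.1, 120 and 76.2 CPM in CBM and 67.7, 70.8 and 141 CPM in EBM. Some exons of Irf9 overlap those of Rnf31 on the same strand, and exons of Irf7 overlap Phrf1 on the other strand, so part of their reads is uncertain. Stat2 varied least, from 48.7 to 68.9 CPM.

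Among the OAS enzymes, which make 2′-5′ oligoadenylates when they meet double-stranded RNA, all 3 of Oas1a, Oas2 and Oas3 followed the pattern, as did the related Oasl1 and Oasl2. Oas2 was at 61.7, 187 and 83.8 CPM in CBM and 55.9, 74.6 and 253 CPM in EBM. The highest library was 4.52 times the lowest. Oas3 was at 78.0, 159 and 84.2 CPM in CBM and 88.3, 80.7 and 189 CPM in EBM. The genes Oas1a, Oas2 and Oas3 lie together on chromosome 5, where Oas1a spans chr5:120896256-120907521. Oas1a has close copies, and Oas1a and Oas1g together had 1310, 2522 and 1713 counts in CBM and 1361, 1420 and 2702 counts in EBM, with the same 2 libraries on top. Ifit1 was at 1.71, 7.37 and 1.34 CPM in CBM and 1.60, 1.73 and 4.30 CPM in EBM, so it followed the pattern where its neighbour Ifit2 did not.

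**Figure D5:**
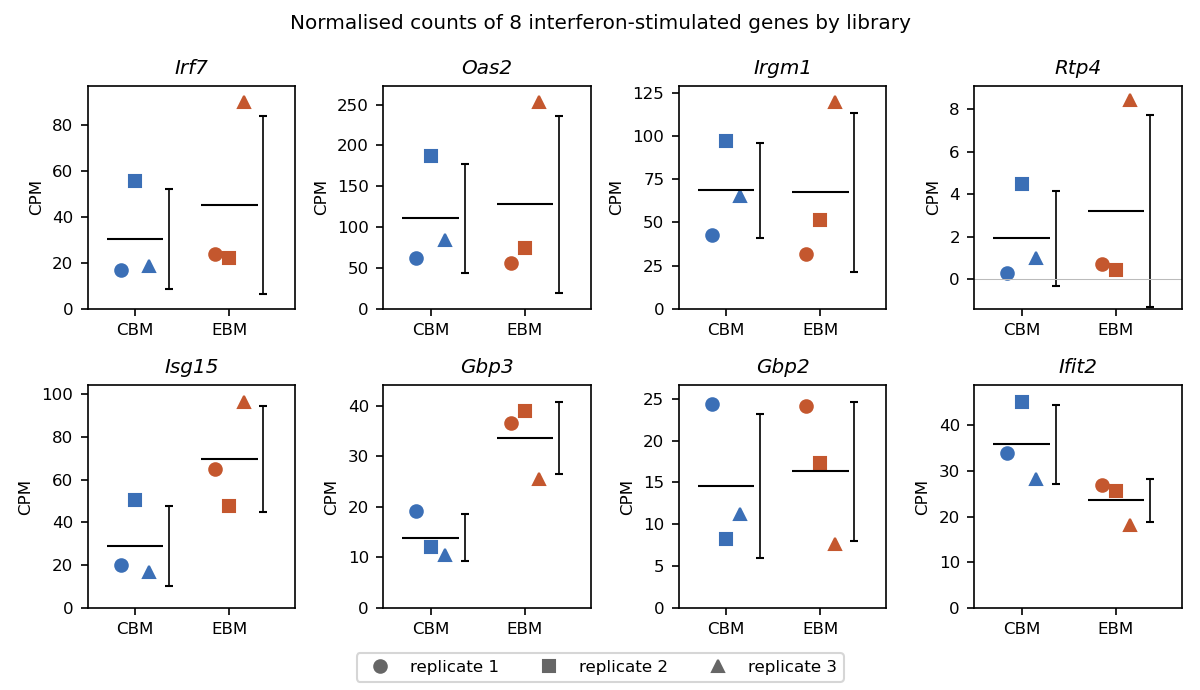
CPM of 8 interferon-stimulated genes in each library (circle, square and triangle for replicates 1, 2 and 3), with the mean of each region as a line and its SD as a bar. Irf7, Oas2, Irgm1 and Rtp4 are highest in CBM replicate 2 and EBM replicate 3, whereas Gbp3 is higher in all EBM libraries, Gbp2 is lowest in those same 2 libraries, and Ifit2 is lowest in EBM replicate 3.

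The RNA sensors behaved alike in part. Ifih1 (MDA5) ranged from 19.2 to 46.6 CPM and Dhx58 (LGP2), a regulator of the other two RNA helicase sensors, from 15.4 to 42.5 CPM, both with the same 2 libraries on top. Ddx58 (RIG-I) was at 17.2, 19.1 and 12.6 CPM in CBM and 16.8, 15.5 and 24.4 CPM in EBM, a narrower range. Eif2ak2 was high in CBM replicate 2 but stood at 43.2 CPM in EBM replicate 3, below CBM replicate 1.

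In the ubiquitin-like group, Trim25, the ligase that activates RIG-I, was at 115, 169 and 123 CPM in CBM and 104, 117 and 136 CPM in EBM. Dtx3l and Parp9, which form a ubiquitin ligase complex, were at 50.8, 56.2 and 54.8 and at 49.3, 61.0 and 48.1 CPM in CBM, and at 41.1, 43.5 and 59.0 and at 44.6, 47.2 and 80.6 CPM in EBM. Their exons overlap on opposite strands on chromosome 16. Parp14, an ADP-ribosyltransferase, ranged from 78.4 to 122 CPM. Usp18, which removes Isg15 from proteins and dampens receptor signalling, was highest in EBM replicate 3 (15.9 CPM) and next in CBM replicate 1 (14.1 CPM). It had 11.3 CPM in CBM replicate 2 and so did not follow the pattern.

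Of the membrane and other antiviral effectors, Bst2 was at 62.0, 70.3 and 65.0 CPM in CBM and 68.7, 60.9 and 93.9 CPM in EBM, and Isg20 ranged from 41.9 to 98.1 CPM. Ifitm3, which blocks fusion of virus with endosomes, was highest in CBM replicate 2 (8.63 CPM) but had 4.43 CPM in EBM replicate 3. Mx1 had between 5 and 20 counts and was highest in CBM replicate 1. Ifi27 was at 83.9, 107 and 88.0 CPM in CBM and 90.6, 90.5 and 133 CPM in EBM. Ifi35, a partner of Nmi, was at 38.7, 35.8 and 43.3 CPM in CBM and 38.4, 43.2 and 53.7 CPM in EBM, high in EBM replicate 3 but lowest in CBM replicate 2. Xaf1, a pro-apoptotic gene, ranged from 9.05 to 23.8 CPM.

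Rtp4, a receptor transporter that interferon induces, was singled out after its values were seen, as the member with the widest range. It had 5, 85 and 20 counts in CBM and 13, 8 and 131 counts in EBM, or 0.285 CPM in the lowest library and 8.42 CPM in the highest, 29.6 times as much. Between regions it differed by 0.72 ± 1.28 (SE) on the log2 scale (edgeR adjusted p = 0.974), and without EBM replicate 3 it was -1.72.

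The GTPases of the interferon gamma response fell on both sides. Irgm1, a regulator of autophagy and of the related GTPases, ranged from 31.6 to 120 CPM, and Igtp from 12.3 to 33.6 CPM, both with CBM replicate 2 and EBM replicate 3 on top. Exons of Igtp overlap those of Irgm2 on the same strand. Gbp2 went the other way, at 24.4, 8.21 and 11.2 CPM in CBM and 24.1, 17.3 and 7.58 CPM in EBM, so that those same libraries were the lowest of their regions. The library pattern was seen in 9 of the 14 tested members that held the GAAA pair and in 8 of the 11 that had a window without it.

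Other genes of the interferon pathway were given by lists written from general knowledge. Of 21 interferon ligand genes, 18 had 0 counts in every library and none had more than 3 counts in any. The receptor chains and kinases were all counted, with Ifnar1 at 48.0 to 64.3 CPM and Ifnar2 at 39.5 to 60.2 CPM, and 2 of these 9 genes followed the library pattern (15.6% of all genes). At an unadjusted p under 0.05, 1 of the 9 was higher in EBM and none lower, beside 4.01% and 3.9% of all genes. This was Ifnlr1, the lambda receptor chain (log2 fold change 0.42, edgeR adjusted p = 0.596), and next by p was Ifngr1, a chain of the gamma receptor, with 0.61 (adjusted p = 0.650).

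Sensors and adaptors had 10 of 14 genes tested, with 1 higher at an unadjusted p under 0.05 (4.01% of all genes) and none with the library pattern (15.6% of all genes). The smallest p belonged to Myd88, the adaptor of Toll-like receptors (log2 fold change 0.32, edgeR adjusted p = 0.520), and to Traf6 (0.16, adjusted p = 0.730). Of 7 other IRF and STAT factors tested, 1 was higher at an unadjusted p under 0.05, again beside 4.01% of all genes. This was Irf1, a factor that interferon gamma and NF-κB both induce. It was at 16.6, 9.16 and 7.69 CPM in CBM and 31.5, 26.8 and 27.6 CPM in EBM, with no overlap (log2 fold change 1.36 ± 0.29 (SE), edgeR adjusted p = 0.275, DESeq2 adjusted p = 0.00110). Irf2 was next by p (log2 fold change 0.15, edgeR adjusted p = 0.736). All 10 negative regulators were tested, and those past an unadjusted p of 0.05 were 2, both higher in EBM (4.01% of all genes higher, 3.9% lower), Irf2bp2 (log2 fold change 0.47, edgeR adjusted p = 0.417) and the phosphatase gene Ptpn2 (0.42, adjusted p = 0.440).

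A further list of 49 interferon-stimulated genes and paralogs outside the 38 had 35 genes tested, and past an unadjusted p of 0.05 lay 3 with higher values in EBM and 1 with lower values, beside 4.01% and 3.9% of all genes. Gbp5, a GTPase that promotes inflammasome assembly, had the smallest p, at 25.5, 28.2 and 24.7 CPM in CBM and 48.6, 66.3 and 70.4 CPM in EBM. Its log2 fold change was 1.24 ± 0.16 (SE), with an adjusted p of 0.115 in edgeR and 7.91e-08 in DESeq2. Gbp7 was next by p, with -0.30 on the log2 scale (edgeR adjusted p = 0.516). In this list 11 of the 35 genes, or 31.4%, had CBM replicate 2 and EBM replicate 3 as their 2 highest libraries, a share between that of the members and that of all genes.

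Marker genes of cell types varied between the libraries too, and members of 1 list did not move together. Among erythroid genes, Klf1, a transcription factor, was at 132, 210 and 178 CPM in CBM and 102, 124 and 254 CPM in EBM, and Hba-a1, an alpha globin, was at 639, 3051 and 1199 CPM in CBM and 808, 1549 and 2078 CPM in EBM. Both had CBM replicate 2 and EBM replicate 3 as their 2 highest libraries. Hbb-bs, a beta globin, did not, at 1117, 1434 and 808 CPM in CBM and 1279, 1338 and 807 CPM in EBM, where EBM replicate 3 was the lowest of all. Of the progenitor markers, Cd34 was lowest in CBM replicate 2 and EBM replicate 3, at 15.4, 1.16 and 4.86 CPM in CBM and 16.4, 10.5 and 1.22 CPM in EBM. Kit was also lowest there, but only from 196 to 239 CPM over the libraries, whereas Myb was highest there, at 322 and 352 CPM. Mpo was highest of the CBM libraries in CBM replicate 2 (14.9 CPM) and lowest of the EBM libraries in EBM replicate 3 (5.53 CPM), and Runx1t1 was lowest in CBM replicate 3 and EBM replicate 3. The 4 B cell markers summed to 7.90 to 14.5 CPM in CBM and 6.81 to 12.3 CPM in EBM, lowest of their region in CBM replicate 2 and EBM replicate 3, and most of each sum was Cd79b. The part of these genes in the pattern of the interferon-stimulated genes was not tested. In bulk samples, more cells of a type and more RNA per cell cannot be told apart. The 5 neutrophil markers summed to 6.15, 167 and 2.28 CPM in CBM and 36.3, 111 and 25.9 CPM in EBM, high in CBM replicate 2 and EBM replicate 2. The 8 macrophage markers summed to 5.51 to 9.32 CPM in CBM and 4.82 to 8.07 CPM in EBM, and EBM replicate 3 had the lowest value, with Cd68 the largest part of each sum. The markers of plasmacytoid dendritic cells, a main source of type I interferon, summed to 3.37 to 7.68 CPM in CBM and 3.34 to 9.27 CPM in EBM, lowest of their region in CBM replicate 2 and EBM replicate 3. Nearly all of that sum was Ccr9 (3.15 to 8.39 CPM), and 3 of the 5, Siglech, Ly6d and Klk1, had at most 3 counts in any library. The T and NK cell, osteoblast, endothelial and stromal lists summed to at most 2.56, 0.779, 3.16 and 0.790 CPM in any library.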

How the data were processed

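RNA-seq of AE9a leukemia cells comprised 3 CBM and 3 EBM libraries, grouped by their sample titles. The authors deposited raw counts per gene, without normalization. They used a directional kit on rRNA-depleted RNA and paired-end reads, although the labels give the library type as mRNA. HISAT2 2.0.5 and mm10 are named in the submitters' processing notes. The counting tool and its strand setting are not given in the sources used here. The gene length in the deposited table was used as given for TPM. All 38 members had the same coordinates in GENCODE M21 (GRCm38).

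From these counts, edgeR 4.0.16 selected genes by filterByExpr, scaled them by TMM and tested them with edgeR's quasi-likelihood F-test without a block, with Benjamini-Hochberg adjustment over 13352 genes at 0.05. Standard errors were derived from the F statistic and the log2 fold change. The method was tested on simulated data. Alternatives were DESeq2 1.42.0, RLE factors, no filter or a filter of 1 CPM in 3 libraries, the replicate number as a block, libraries thinned to equal totals, and the fit without each single library. The members and lists were chosen with earlier results of these data known, so no list was tested as a set. All members were to be named, with values in every library for the 12 smallest p, the 3 highest mean CPM, Irf7 and Isg15, and in other lists the 2 genes with the smallest p. Other genes named with values were chosen after their values were seen. Results that need certain genes, a summed level of erythroid markers among them, are not reported here.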

Additional observations from a re-analysis of the deposited data

How the results depend on the processing

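Across all genes, 0 passed an adjusted p of 0.05 in either direction in the edgeR fit (an unadjusted p under 0.05 was reached by 535 with higher and 521 with lower values in EBM), whereas DESeq2 gave 131 higher and 44 lower and edgeR without the filter on low counts gave 38 higher and 2 lower. Leaving out single libraries kept both counts at 0. An alternative chosen after seeing the data left out CBM replicate 2 and EBM replicate 3 together and gave 8 higher and 5 lower. Of the members, DESeq2 called 1 higher. The 2 members higher at an unadjusted p under 0.05 became 1 with the replicate number as a block, 4 without both libraries and 1 to 3 with single libraries left out, and the 2 lower became 0 to 4 with single libraries left out. Equal replicate numbers did not pair the libraries throughout. Over all genes tested, the deviations from the region means correlated at 0.73, -0.24 and 0.20 for numbers 1, 2 and 3. CBM replicate 2 and EBM replicate 3, the libraries of the members' pattern, correlated at 0.56. CBM replicate 1 and EBM replicate 3 correlated at -0.72. The block changed no other call among the members. The RLE factors changed no direction. The log2 fold change of Igtp, near 0, turned to 0.0086 in DESeq2 and 0.0074 without the filter, and that of Xaf1 to -0.018 in thinned libraries. Without both libraries the log2 fold changes of 11 members turned, with Irf9 -0.08, Usp18 -0.23, Parp9 -0.09, Dhx58 -0.09, Ifit1 0.13, Oas1a -0.02, Oas2 -0.16, Oasl1 -0.09, Ifitm3 0.16, Ifi35 -0.0085, Rtp4 -0.16. With single libraries left out, 25 members changed sign in some setting, 17 of them without EBM replicate 3 and 8 without CBM replicate 2, and their log2 fold changes ranged as follows: Stat2 -0.21 to 0.062, Irf7 -0.42 to 1.34, Irf9 -0.37 to 0.35, Usp18 -0.27 to 0.31, Parp9 -0.21 to 0.27, Parp14 -0.36 to 0.0024, Ifih1 -0.55 to 0.42, Ddx58 -0.025 to 0.34, Dhx58 -0.54 to 0.55, Ifit1 -1.06 to 0.73, Oas1a -0.30 to 0.47, Oas2 -0.77 to 0.81, Oas3 -0.35 to 0.56, Oasl1 -0.31 to 0.37, Oasl2 -0.092 to 1.16, Mx1 -0.50 to 0.63, Bst2 -0.031 to 0.30, Ifitm3 -0.60 to 0.11, Isg20 -0.13 to 0.50, Gbp2 -0.23 to 0.75, Igtp -0.66 to 0.25, Irgm1 -0.73 to 0.32, Ifi27 -0.047 to 0.29, Rtp4 -1.72 to 2.27, Xaf1 -0.50 to 0.59. Of the members, Gbp3, Isg15, Ifit2, Eif2ak2, Samd9l, Trim25 and Dtx3l kept their direction in every setting run. The causes of these changes were not tested. With 3 libraries per region, differences below the spread between libraries could not be resolved.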
